A study of Homo sapiens with 9 samples.

Results

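Sites of EGR1 binding near 6 genes of the cytoskeleton, LIMK1, BAIAP2, ABR, MICALL1, TUBB6 and ABLIM3, were described in a chromatin immunoprecipitation and sequencing (ChIP-seq) study of BJ-hTert-B-RAF-V600E cells. These are human fibroblasts immortalised with telomerase, in which doxycycline switches on the oncoprotein B-Raf-V600E. A site was a member when the summit of its peak lay in 1 of 6 hg19 windows, of 60 to 270 kb each and 780 kb in all: 73.48 to 73.56 Mb of chromosome 7 for LIMK1, 78.98 to 79.11 Mb and 0.88 to 1.15 Mb of chromosome 17 for BAIAP2 and ABR, 38.28 to 38.36 Mb of chromosome 22 for MICALL1, 12.29 to 12.35 Mb of chromosome 18 for TUBB6, and 148.50 to 148.66 Mb of chromosome 5 for ABLIM3. The windows held 18 of the 12340 peaks listed with clobetasol and 21 of the 16285 listed on induction alone, which together made 22 sites. The genes were chosen by the listed fold and −log10 q of the induced and clobetasol peaks near them, so these values are given as a description.

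The 9 libraries fell into 3 groups of 3, all of the same cell line and all precipitated with the same antibody against EGR1. One group received doxycycline at 1000 ng/mL together with clobetasol, a glucocorticoid, at 2 nM. Another group received doxycycline at 1000 ng/mL, with DMSO as the treatment. The proliferating cells received ethanol as the inducer and DMSO, and every treatment ran for 24 h. The titles name DMSO for the clobetasol group as well, and whether it was given there is not settled by the labels. The 3 libraries of each group were pooled before peaks were called, each treated pool was set against the pooled proliferating EGR1 libraries, per the peak names, and not against an input. With 1 pool a group, no value can be set against the spread between replicates. Intervals of ratios are exact binomial 95% intervals and cover counting error only. The median summit held 75 fragments in the clobetasol list and 64 in the induced list, and the clobetasol pool was 1.21 times as deep as the induced pool.

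EGR1 is a zinc finger transcription factor that is switched on within minutes of MAP kinase signalling and binds GC-rich sites, often in promoters. Clobetasol acts through the glucocorticoid receptor. Actin filaments are built, cut and bundled by proteins that answer to small GTPases such as Rac and Cdc42, and fibroblasts remodel these filaments and their microtubules when they spread, move or enter senescence.

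The promoters of the 6 genes differed in how often they held the letters that EGR1 prefers. RefSeq (GRCh38.p14) gave 17 starts for the 6 genes, and the window searched ran from 250 bases before to 50 bases after each start. The motif GCGTGGGCG, searched on both strands, was in 0 of these 17 windows and in 0.795% of the 35116 windows of all genes. The motif GCGGGGGCG was in 4 of the 17 windows, from TUBB6, BAIAP2 and ABR, and in 5.07% of all windows. No window of LIMK1, MICALL1 or ABLIM3 held either. The shorter core GGGCG, which is also the end of both longer motifs, was in 15 of 17 windows and in 57.2% of all. Of 35 other genes of actin and tubulin regulation, 30 had promoters in the table, and 4 of these, SSH1, MICALL2, TUBB and TUBB2A, held 1 of the longer motifs. That was 13.3% of the 30 genes, against 6.95% of all 27305 genes with promoters in the table. Counted by gene as well, 3 of the 6 genes held a longer motif. Counted by window, the 30 genes had a longer motif in 4 of 46 (8.7%), against 5.77% of all windows. The 250 bases before the start are shown here, 5′ to 3′, for each start with a longer motif, with that motif or its reverse complement in capitals. LIMK1 and ABLIM3 are shown for comparison, as the genes with the lowest and the highest ratio of clobetasol to induced signal among the sites, with the core GGGCG or its reverse complement in capitals.
TUBB6, start 2, GRCh38.p14 chr18:12307991-12308240, plus strand: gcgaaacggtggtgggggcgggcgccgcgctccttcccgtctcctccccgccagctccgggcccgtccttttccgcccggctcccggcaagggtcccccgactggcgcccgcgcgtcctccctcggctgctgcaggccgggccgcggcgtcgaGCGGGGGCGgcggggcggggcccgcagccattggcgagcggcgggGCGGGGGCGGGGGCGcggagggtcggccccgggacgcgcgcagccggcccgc
BAIAP2, start 1, GRCh38.p14 chr17:81034901-81035150, plus strand: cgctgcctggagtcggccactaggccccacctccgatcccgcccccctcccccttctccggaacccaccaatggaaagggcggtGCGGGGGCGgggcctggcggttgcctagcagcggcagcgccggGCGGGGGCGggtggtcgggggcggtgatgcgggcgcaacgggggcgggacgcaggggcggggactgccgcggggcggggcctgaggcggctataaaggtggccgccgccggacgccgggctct
ABR, start 1, GRCh38.p14 chr17:1229723-1229972, minus strand: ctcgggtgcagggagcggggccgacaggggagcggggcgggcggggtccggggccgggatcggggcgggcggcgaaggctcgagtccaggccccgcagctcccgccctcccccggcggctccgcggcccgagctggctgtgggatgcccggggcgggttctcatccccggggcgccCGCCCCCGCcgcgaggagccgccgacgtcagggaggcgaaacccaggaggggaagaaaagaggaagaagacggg
ABR, start 3, GRCh38.p14 chr17:1179982-1180231, minus strand: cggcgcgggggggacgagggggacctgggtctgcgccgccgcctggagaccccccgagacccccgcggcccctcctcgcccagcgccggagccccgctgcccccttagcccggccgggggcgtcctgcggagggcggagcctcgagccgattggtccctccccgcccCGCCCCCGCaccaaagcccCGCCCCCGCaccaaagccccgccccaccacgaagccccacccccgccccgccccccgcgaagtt
LIMK1, start 1, GRCh38.p14 chr7:74083554-74083803, plus strand: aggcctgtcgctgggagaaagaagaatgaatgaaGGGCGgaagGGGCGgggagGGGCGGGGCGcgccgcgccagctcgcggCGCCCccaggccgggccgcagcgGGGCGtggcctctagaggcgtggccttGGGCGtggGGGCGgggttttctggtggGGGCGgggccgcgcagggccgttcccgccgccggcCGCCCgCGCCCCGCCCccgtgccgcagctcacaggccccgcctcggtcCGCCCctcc
ABLIM3, start 1, GRCh38.p14 chr5:149141243-149141492, plus strand: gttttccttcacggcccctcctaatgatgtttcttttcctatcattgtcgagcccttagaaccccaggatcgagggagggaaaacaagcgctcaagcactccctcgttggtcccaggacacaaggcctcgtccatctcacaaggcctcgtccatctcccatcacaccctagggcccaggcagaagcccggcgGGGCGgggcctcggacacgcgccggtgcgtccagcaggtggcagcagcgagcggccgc

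The TUBB6 promoter carried 3 copies of GCGGGGGCG, from bases 154, 199 and 205 of the printed run, and the last 2 of these overlap. BAIAP2 had 2 copies on the strand shown, and the ABR starts had 1 and 2 copies on the opposite strand. LIMK1 and ABLIM3 have 2 starts each, of which the first is shown. The window of LIMK1 start 1 had 13 copies of the core and that of start 2 had 0. The window of ABLIM3 start 1 had 2 copies of the core, of which 1 lies in the bases shown, and that of start 2 had 4. The core counts thus differed between starts of 1 gene and gave no fixed order of the 2 genes. The peaks are placed in hg19 and the promoters in another build, so whether a peak lay on one of these promoters was not analysed here. In RefSeq (GRCh38.p14) the protein-coding neighbours, in order of gene position, are ELN and EIF4H for LIMK1, CHMP6 and AATK for BAIAP2, TIMM22 and BHLHA9 for ABR, EIF3L and C22orf23 for MICALL1, CIDEA and AFG3L2 for TUBB6, and SH3TC2 and AFAP1L1 for ABLIM3. In that build AATK overlaps BAIAP2, TIMM22 overlaps ABR and AFG3L2 overlaps TUBB6. Which of the neighbours lie in the hg19 windows was not analysed here, so sites may lie in or near other genes. A site is named by the gene of its window and numbered along hg19, and the name does not assign it to that gene.

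Most of the sites near these genes were listed in both treated pools. An overlapping clobetasol peak was listed for 17 of the 21 induced members (81.0%, exact 95% interval 58.1 to 94.6), against 64.0% of all induced peaks. All 12 members with an induced −log10 q of at least 20 were shared, where the share over all such peaks was 94.5%. Of the 9 weaker members, 5 were shared, against 45.6% of all weaker peaks. In the other direction, 17 of the 18 clobetasol members overlapped an induced peak, against 86.4% of all clobetasol peaks. Members had a median listed fold over proliferating cells of 4.07 with clobetasol and 4.69 on induction alone, and the medians of the whole lists were 3.16 with clobetasol and 3.64 on induction alone. A fold over 5 was listed for 4 of 18 clobetasol members and for 10 of 21 induced members, against 3.79% of all clobetasol and 13.1% of all induced peaks. Since these folds chose the genes, nothing is read from that.

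**Figure D1:**
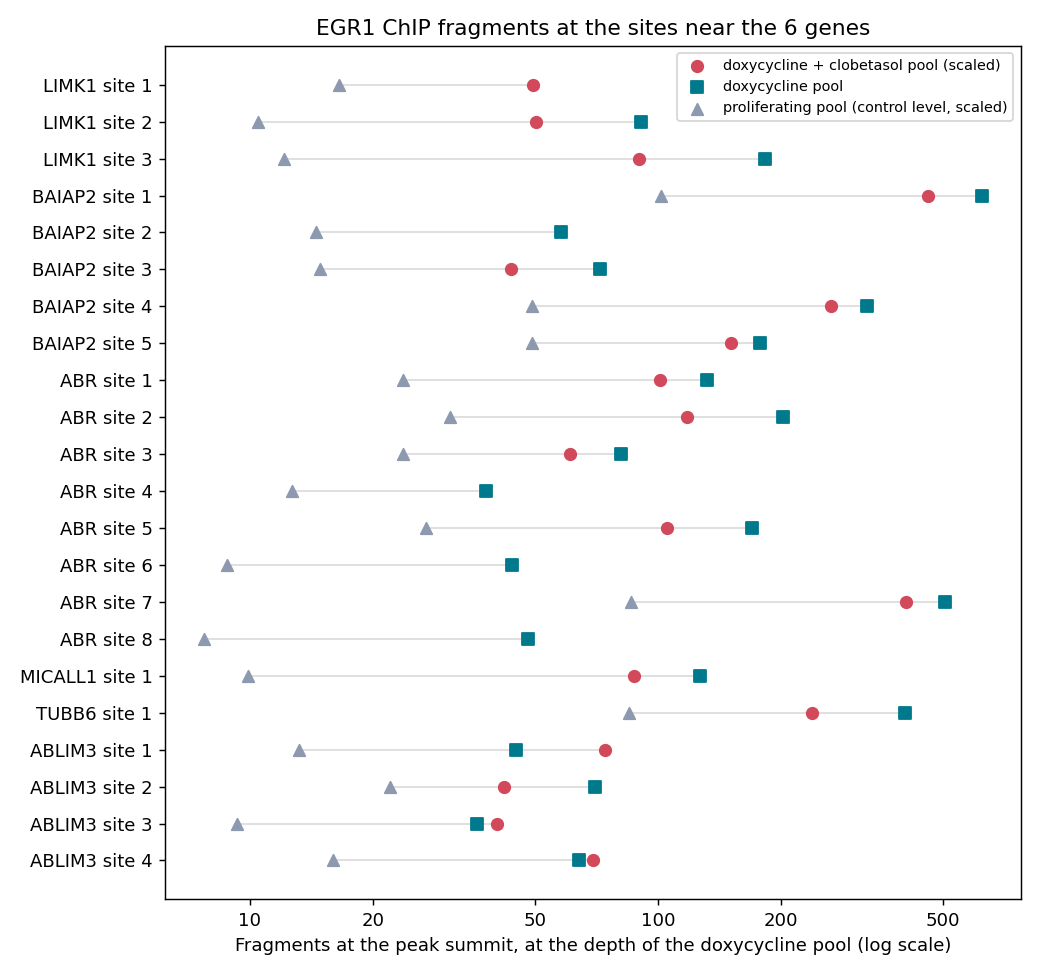
EGR1 ChIP fragments at the summit of each of the 22 sites (rows) on a log axis, at the depth of the induced pool: circles show the clobetasol pool, squares the induced pool and triangles the control level from the proliferating pool, at the summit of the clobetasol peak for LIMK1 site 1 and of the induced peak elsewhere. A pool without a listed peak has no mark. The circle lies left of the square at all shared sites except ABLIM3 sites 1, 3 and 4.

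At the shared members, as at most shared sites of the lists, the pileup with clobetasol was below that on induction alone. The pileup is the number of fragments over the summit, and clobetasol pileups were divided by the depth ratio of 1.21 before comparison. The median ratio of clobetasol to induced pileup was 0.741 over the 17 shared members, against 0.798 over all 10429 shared sites. At an induced −log10 q of at least 20, it was 0.653 over 12 members and 0.747 over all 5800 shared sites. Under 20, it was 1.08 over 5 members and 0.875 over all 4629 shared sites. The ratio was under 1 at 14 of 17 members, against 87.4% of all shared sites and 95.7% of the strong ones, so this count does not set the members apart. The interval lay below 1 at 12 of 17 members, against 35.7% of all shared sites and 57.8% of those with a −log10 q of at least 20. It lay above 1 at 1 member, against 0.662% of all shared sites and 0.362% of the strong ones. The remaining 4 intervals included 1. Among the 12 strong members, 11 intervals lay below 1 and ratios ran from 0.490 to 0.846. These counts depend on the depth ratio. Without depth scaling, an alternative chosen after seeing the data, 5 intervals lay below 1, at both induced LIMK1 sites, ABR sites 2 and 5 and the TUBB6 site, against 7.55% of all shared sites. The intervals at BAIAP2 sites 1, 3 and 4, ABR sites 1 and 7, MICALL1 site 1 and ABLIM3 site 2 then included 1, and ABLIM3 site 1 still lay above it, against 5.55% of all. The 5 sites still below 1 all had an induced −log10 q of at least 20, and the unscaled share over such sites alone was not computed. The folds that chose the genes enter these ratios, so they are a description of these pools. How much DNA each immunoprecipitation recovered was not reported.

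**Figure D2:**
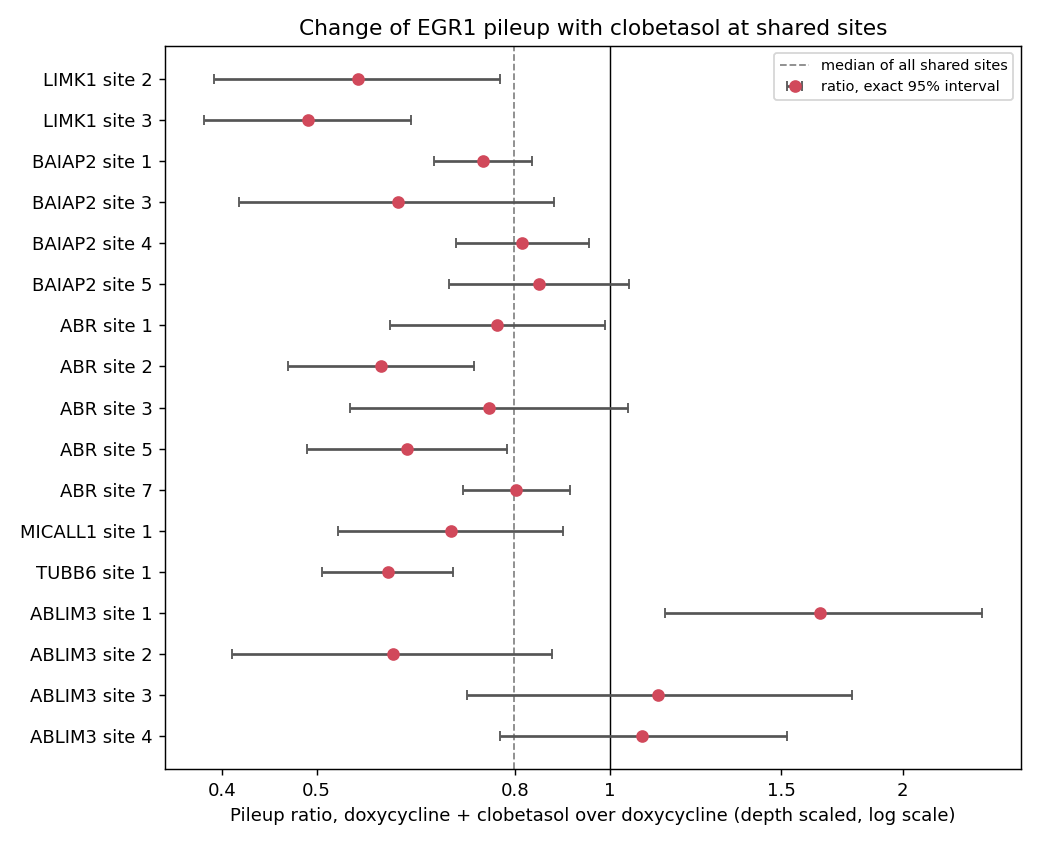
Depth-scaled pileup ratio of the clobetasol pool over the induced pool at each of the 17 shared sites, on a log axis, with exact binomial 95% intervals for counting error. The solid line marks 1 and the dashed line the median of all shared sites, 0.798. LIMK1 site 3 has the lowest ratio, 0.490, and ABLIM3 site 1 the highest, 1.65.

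LIMK1 encodes a kinase that phosphorylates and so inactivates cofilin, a protein that cuts actin filaments. Its window held the induced peak of largest fold in the whole list, and the lowest clobetasol ratios of the 6 genes. LIMK1 site 3, at chr7:73508462-73509398, held 109 fragments in the clobetasol pool (89.7 at the induced depth), 183 in the induced pool and a control level of 12.1 from the proliferating pool. Both treated pools stood far above the proliferating level, with the clobetasol pool below the induced one. A listed peak always stands above that level, and LIMK1 was chosen by its folds, so nothing is read from the height. Its listed fold was 6.99 with clobetasol and 14.0 on induction alone, and the pileup ratio was 0.490 (0.383 to 0.625).

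LIMK1 site 2, at chr7:73497792-73498673, lay 10.7 kb before site 3. It held 61 fragments with clobetasol (50.2 at the induced depth), 91 on induction alone and a control level of 10.5, with listed folds of 4.75 with clobetasol and 8.01 without it. The ratio was 0.552 (0.392 to 0.771), and the interval thus lay below 1 at both induced LIMK1 sites. The induced folds that chose LIMK1 enter both ratios, so this describes these pools only. The peak of site 2 spanned 354 bp with clobetasol and 882 bp on induction. LIMK1 site 1, at chr7:73493512-73493793, was the only member listed with clobetasol and not on induction alone. It held 60 fragments with clobetasol at a listed fold of 2.89 and a −log10 q of 9.40. It thus ranked 8654 of 12340 peaks by q, and its level in the induced pool is not known from the lists.

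BAIAP2 encodes an adaptor that bends membranes and links Rac and Cdc42 to actin assembly in filopodia and lamellipodia. Its strongest site ranked 8 of 16285 induced peaks by q and 16 of 12340 with clobetasol. This was BAIAP2 site 1, at chr17:79008508-79009018, with 559 fragments in the clobetasol pool (460.1 at the induced depth), 621 in the induced pool and a control level of 101 from proliferating cells. It was the largest pileup of all members in both treated pools and also had the highest proliferating level, 15.7 times the lowest of the induced list. The listed folds were 4.48 with clobetasol and 6.07 without it, and the ratio was 0.741 (0.660 to 0.832).

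BAIAP2 site 4, at chr17:79071060-79071504, lay 62.5 kb further on and had the highest BAIAP2 folds, 5.39 with clobetasol and 6.53 on induction. It held 322 fragments with clobetasol (265 at the induced depth), 326 on induction and a control level of 49.1. The ratio of 0.813 (0.695 to 0.951) was nearer 1 than at site 1, and the intervals of the 2 sites overlap. BAIAP2 site 5, at chr17:79093098-79093760, had the same control level of 49.1, with 183 fragments with clobetasol and 178 on induction. Its ratio was 0.846, and the interval of 0.685 to 1.05 included 1.

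The weaker BAIAP2 sites lay close to the strongest one. BAIAP2 site 3, at chr17:79013978-79014468, held 53 fragments with clobetasol and 72 on induction, a ratio of 0.606 (0.417 to 0.876). BAIAP2 site 2, at chr17:79009358-79009705, lay only 0.680 kb after site 1 and had no clobetasol peak. It held 58 fragments on induction over a control level of 14.5, with a listed fold of 3.80 and a −log10 q of 14.4.

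ABR encodes a protein with a domain that switches Rac off. With 8 induced sites its window held the most members, but it is also the widest, at 270 kb. The strongest was ABR site 7, at chr17:1106535-1106978, which ranked 18 by q in each of the 2 lists. It held 493 fragments with clobetasol (406 at the induced depth), 506 on induction and a control level of 86.0. The listed folds were 4.83 with clobetasol and 5.82 on induction alone, and the ratio of 0.802 (0.707 to 0.910) lay below 1.

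The other ABR sites lay far from site 7 or close to it. Sites 1, 2 and 3 lay 206 to 225 kb before site 7, sites 4, 5 and 6 lay 17.0 to 26.0 kb before it, and site 8 lay 26.3 kb after it. ABR site 2, at chr17:882583-883617, had the highest ABR fold on induction, 6.37, against 4.09 with clobetasol. Its fragments numbered 143 with clobetasol (118 at the induced depth) and 202 on induction, and its ratio of 0.583 (0.467 to 0.725) was the lowest of the ABR sites. ABR site 1, only 1.18 kb away at chr17:881308-882260, had 123 fragments with clobetasol and 132 on induction, a ratio of 0.767 (0.595 to 0.988). The intervals of these neighbours overlap.

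ABR site 5, at chr17:1081994-1083707, was the widest member, at 1577 bp with clobetasol and 1714 bp on induction, and its summits in the 2 lists lay 1 bp apart. It held 128 fragments with clobetasol and 170 on induction, a ratio of 0.620 (0.489 to 0.784). ABR site 3, at chr17:900270-900800, was weaker, with 74 and 81 fragments in the clobetasol and induced pools, and its interval included 1 (ratio 0.752, 0.541 to 1.04).

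Of the 4 induced members without a clobetasol peak, 3 were ABR sites. ABR site 8, at chr17:1132874-1133264, was the strongest of the 4 by q, with 48 fragments over a control level of 7.72, a listed fold of 5.62 and a −log10 q of 19.1. ABR site 6, at chr17:1089647-1090010, held 44 fragments at a fold of 4.59 and a −log10 q of 13.95. ABR site 4, at chr17:1080596-1081053, held 38 at a fold of 2.85. Its −log10 q of 5.65 was near the lowest of the induced list, 5.00. All 4 had a −log10 q under 20 on induction. A site without a peak is only known to be missing from the deposited clobetasol list, in which the lowest −log10 q was 5.00.

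**Figure D3:**
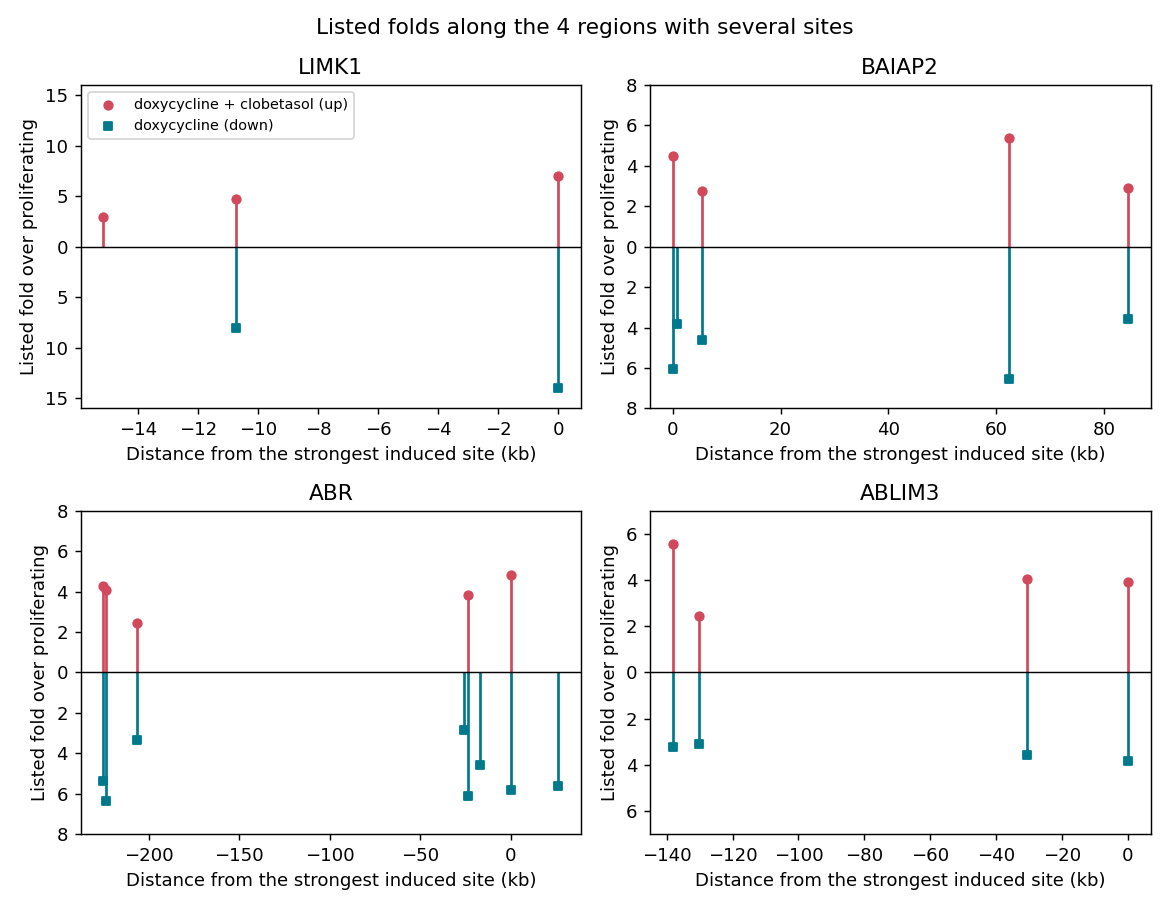
Listed fold over proliferating cells against distance in kb from the strongest induced site, in the 4 windows with several sites; circles pointing up are the clobetasol list and squares pointing down the induced list, on mirrored axes that start at 0. The induced fold is the larger at every shared LIMK1, BAIAP2 and ABR site, and the clobetasol fold is the larger at ABLIM3 sites 1, 3 and 4.

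MICALL1 and TUBB6 had 1 site each, and both were shared. MICALL1 encodes an adaptor of recycling endosomes that shapes membrane tubules. Its site, at chr22:38301686-38302958, ranked 19 by fold with clobetasol and 4 on induction, with listed folds of 8.19 with clobetasol and 11.7 without it. It held 106 fragments with clobetasol (87.2 at the induced depth), 127 on induction and a control level of only 9.93. The ratio was 0.687 (0.526 to 0.896), and the peak was 516 bp wide with clobetasol and 1273 bp on induction.

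TUBB6 encodes a beta tubulin, a building block of microtubules and not of actin filaments. Its site, at chr18:12307880-12308333, held 289 fragments with clobetasol (238 at the induced depth), 402 on induction and a control level of 84.9, which is 13.1 times the lowest of the list. The listed folds were 2.91 with clobetasol and 4.69 on induction alone. The ratio of 0.592 (0.507 to 0.690) was the lowest among the 5 members with a control level over 5 times the lowest. Such levels were found at 5 of 21 induced members, namely at BAIAP2 sites 1, 4 and 5, ABR site 7 and TUBB6 site 1, against 17.9% of all induced peaks. Pileups include the control level, and on the excess over it the TUBB6 ratio was 0.495.

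ABLIM3 encodes a LIM domain protein that binds actin filaments, and 3 of its 4 sites had more depth-scaled signal with clobetasol than on induction alone, which no shared site of the other genes had. The intervals at 2 of these 3, sites 3 and 4, included 1. All 4 ABLIM3 sites had an induced −log10 q under 20, and ABR site 3 was the only other shared member as weak. The median ratio was 0.875 over the 4629 shared sites that weak, against 0.747 over the strong ones. Gene and strength therefore cannot be told apart here, and the difference between genes was not tested. On induction its 4 sites were not among the strong peaks: listed folds ran from 3.08 to 3.82 around the list median of 3.64, and ranks by q from 7576 to 12671 of 16285. The name of the group, near strong sites, therefore does not hold for ABLIM3 in the induced list. With clobetasol, listed folds ran from 2.46 to 5.54. The listed fold was higher with clobetasol at 3 of the 17 shared members, all of them ABLIM3 sites, against 15.6% of all shared sites.

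ABLIM3 site 1, at chr5:148513768-148514151, held 90 fragments with clobetasol (74.1 at the induced depth), 45 on induction and a control level of 13.2. The listed fold was 5.54 with clobetasol, rank 235 of its list, and 3.23 without it. Its ratio was 1.65 (1.14 to 2.41), the only member with an interval above 1. Among shared sites with an induced −log10 q under 20, such intervals made up 1.04%.

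At the other ABLIM3 sites the interval included 1 or lay below it. ABLIM3 site 4, at chr5:148651826-148652251, was the strongest of the window on induction, with 84 fragments with clobetasol and 64 on induction, a ratio of 1.08 (0.771 to 1.52). ABLIM3 site 3, at chr5:148621215-148621708, held 49 and 36 fragments in the clobetasol and induced pools, a ratio of 1.12 (0.714 to 1.77). These intervals include both 1 and the median of all shared sites. ABLIM3 site 2, at chr5:148521126-148522121, was lower with clobetasol, with 51 fragments with clobetasol against 70 on induction and a ratio of 0.600 (0.410 to 0.873), but its summits lay 429 bp apart, so this ratio need not describe 1 binding position.

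**Figure D4:**
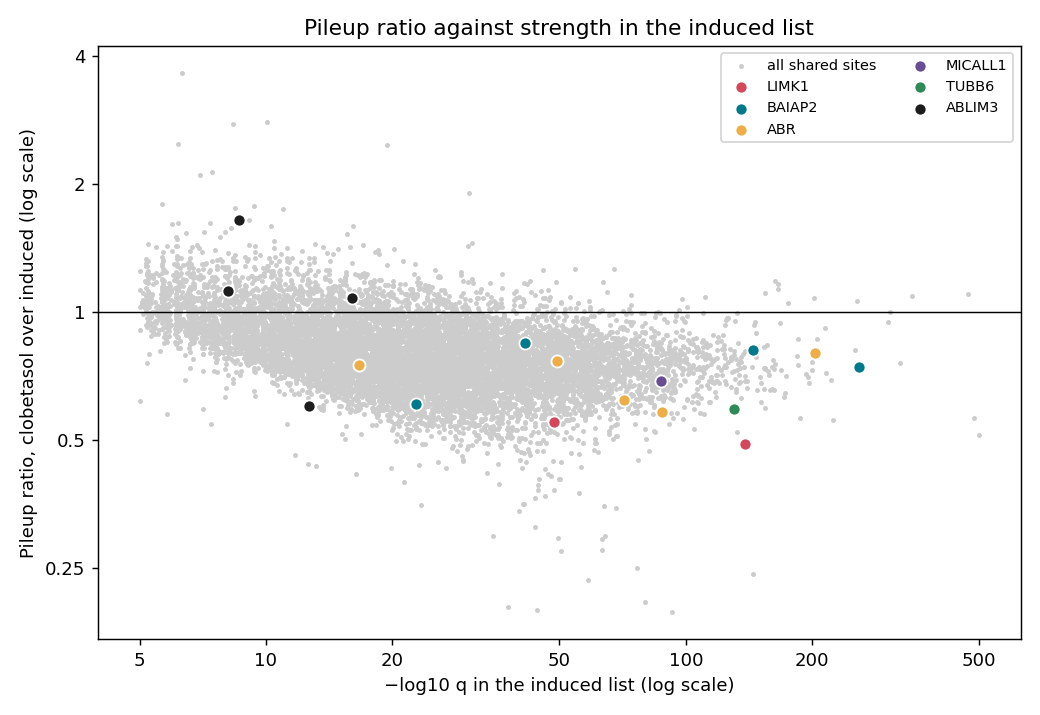
Depth-scaled pileup ratio of the clobetasol pool over the induced pool against −log10 q in the induced list, both on log axes, for all 10429 shared sites (grey) and the 17 shared members (coloured by gene). Ratios under 1 prevail among the strong sites, with a −log10 q of at least 20, where 12 of the members lie and the median over all shared sites is 0.747. The median over the 4629 weaker shared sites, 0.875, is also under 1. The other 5 members are the ABLIM3 sites and ABR site 3.

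The position of the peaks changed little between the lists. Summits lay a median of 12.0 bp apart at the 17 shared members and 11 bp over all shared sites. They were within 100 bp at 16 members, against 95.2% of all shared sites. At those 16, the proliferating fragments recovered from the clobetasol list were 0.911 to 1.07 times those from the induced list, so the 2 lists gave nearly the same control at each site. Peaks were narrower with clobetasol at 16 of 17 shared members, ABLIM3 site 1 being the exception, and at 8236 of all 10429 shared sites. The median width was 431 bp over the clobetasol members and 494 bp over the induced members. Over the whole lists it was 339 bp with clobetasol and 423 bp on induction.

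The windows had few peaks near their edges. The member nearest an edge was ABR site 1, whose summit lay 1.88 kb inside. The nearest peak outside lay 1.91 kb below the TUBB6 window, with listed folds of 1.68 with clobetasol and 1.98 on induction. Every other window had its nearest outside peak at least 21.7 kb away. Among these, a site 25.6 kb below the BAIAP2 window was listed with a fold of 7.12 with clobetasol and 5.86 on induction.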

How the data were processed

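EGR1 ChIP-seq was measured in 3 groups of 3 libraries. Per the submitters' processing notes, reads were handled with MACS2 2.1.1.20160309 on hg19, and BWA, cutadapt 1.15 and SAMtools 1.3.1 were among the other tools. Per the labels, the library names of proliferating replicates 2 and 3 carry one sample name, so whether that pool held 3 distinct samples is not settled, and nothing says whether libraries came from separate cultures. The authors pooled replicates, per the peak names in the files, and deposited for each peak a fold ratio of treated pileup to local control, −log10 p and −log10 q values at the summit, and a score, which is 10 times the −log10 q without its decimals. Peak numbers ran to 26677 with clobetasol and 52393 on induction, above the numbers listed, so peaks may have been removed after calling. The lowest −log10 q listed was 5.00 in each list. Folds and q values are the authors'. Ranks were taken within 1 list. Listed folds of the 2 lists were set side by side as a description, and the ratios used depth-scaled pileups.

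With 1 added to the pileup and to the control level, their ratio is the fold, and the p is their Poisson tail probability, so pileup and control were solved for each peak (Python 3.11.15, NumPy 2.4.6, SciPy 1.17.1). The pileup came within 0.05 of a whole number for 99.6% of peaks in each list, against 10% by chance. Control levels were multiples of 0.670 with clobetasol and 0.552 on induction, the factors that scale the proliferating pool, and their ratio gave the depth ratio of 1.21. The recovery was tested on simulated data. Peaks counted as shared with an overlap of at least 1 bp, and the partner was the peak of largest overlap. No test was run, since the genes, windows and lists were chosen with earlier results of these data known and each group is 1 pool. Sites named were those of highest −log10 q or fold in each window, those with an interval above 1 and the strongest without a partner, and the other sites were added. The promoters shown were chosen after their motifs were seen.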

Additional observations from a re-analysis of the deposited data

How the results depend on the processing

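Over 12 results, 33 alternative values were computed, of which 27 stayed within the interval of the reported value (or within 1.5 times a count), 6 moved and 0 crossed to the other side of 1. The settings were a −log10 q of at least 10, narrower windows, summits within 100 bp or an overlap of 50% as the rule for sharing, sites without a raised control level, each gene left out in turn, the excess over control and no depth scaling. Without depth scaling the median ratio of the shared members was 0.900, and the ratio was 0.900 at the strongest BAIAP2 site, 0.974 at the strongest ABR site and 0.719 at the TUBB6 site. The count of members with an interval below 1 was then 5 in place of 12, and the count above 1 stayed at 1; these counts were added after seeing the data. On the excess over the control level the TUBB6 ratio was 0.495. Leaving out 1 gene gave median ratios of 0.687 to 0.752. The share of induced members with a clobetasol peak lay between 66.7% and 81.0%. Replicates could not be left out in turn, and the depth of a pool limits each ratio as its interval shows. No paired analysis was possible because the lists hold 1 pool per group and no test was run.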
